A study of Zea mays with 12 samples.

Results

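Maize primary root tips held at low water potential for 48 h (WS48) were compared with well-watered tips taken at 24 h (WW24), the control whose roots had reached about the same length. The comparison used the 3 WS48 and the 3 WW24 libraries, 6 of the 12 libraries of the series, chosen by their labels and not by any measured value. All 42976 gene rows of the count table entered, and 26746 of them passed the filter on low counts and were tested. A transcript was called increased or decreased in WS48 when its level had changed by a log2 value of 1 or more and its adjusted p was 0.05 or lower. The p-values came from the quasi-likelihood test of edgeR and were adjusted over all tested features by the Benjamini-Hochberg method.

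Both groups were seedlings of the inbred line FR697, grown at the same temperature in the dark in vermiculite moistened with CaSO4 solution. WW24 stood in medium at −0.02 MPa for 24 h, and root tips of 12 mm were taken. WS48 stood at −1.6 MPa for 48 h, and tips of 7 mm were taken. In each case the tip held the whole elongation zone, where cells left by the meristem lengthen, and many tips were pooled per sample. Matching root length left other differences in place: water potential, time after transplanting and tip length all differed between the groups, and their parts in a change cannot be told apart here. The well-watered 48 h group (WW48, −0.02 MPa, 12 mm, 3 libraries) is cited where it shows how far the choice of control moved a value. Replicates are independent experiments according to the study, and every seedling was of the same inbred line. Tips hold many cell types, so fewer cells of a type and less RNA per cell cannot be told apart in any of the changes given here.

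A primary root in drying soil keeps growing near its apex after elongation has stopped in the shoot, while its elongation zone becomes shorter. Abscisic acid (ABA), made from carotenoids, accumulates in such tips and is needed for this growth. Solutes such as proline and sugars gather in the cells and lower their osmotic potential, and wall proteins such as expansins change how far the wall yields.

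Counts on genes ranged from 41969882 to 47534273 per library. The first principal component of the 6 libraries, over 14278 well-expressed features, held 83.1% of the variance and set WS48 apart from WW24. The second held 7.55% and placed WW24 replicate 1, at 16.9, away from the other WW24 libraries, at −9.68 and −6.13. In replicate 1 of WW24, 144 features stood over 1 CPM (a count as a share, in ppm, of the library total scaled by TMM) and over 4 times the level of both other WW24 libraries, against 11 and 15 such features in replicates 2 and 3. WS48 replicate 3 had 55 such features, and replicates 1 and 2 had 4 and 6. Pairs of libraries differed by a root mean square log2 distance of 0.135 to 0.270 within groups and of 0.564 to 0.617 between them. The factors that TMM gives each library hold most genes level between libraries. Results without them are cited where they differ, and without them the median log2 change of all tested features was 0.15. Levels are in CPM in the order of replicates 1, 2 and 3, a change given as a bare number is on the log2 scale, and SE is an approximate standard error, obtained as the log2 change over the root of its F statistic.

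Of the tested features, 3346 were called, which is 12.5%. Increases (2074, or 7.75%) outnumbered decreases (1272, or 4.76%), and they were also larger. The excess of increases was smaller under another control or call rule. From WW48, 1908 features increased and 1815 decreased in WS48. The adjusted p alone gave 5339 increases and 5085 decreases from WW24. A log2 change of 3 or more in size was reached by 544 increased and 174 decreased features, and one of 5 or more by 208 and 38. The median log2 change was 1.89 among increased and −1.58 among decreased features, against 0.01 over all features tested. The 3 libraries of WS48 lay wholly above or wholly below those of WW24 for 3290 of the 3346 called features and for 52.1% of all features tested.

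Increased transcripts were mostly rare in the control. Their median level in WW24 was 0.625 CPM, against 6.24 CPM for decreased transcripts and 9.39 CPM for all tested features. WW24 is the lower group of an increase and the higher group of a decrease, so the calls themselves set part of this contrast. The filter also admits a feature through either group alone. Over the 3 WW24 libraries together, 57 increased features had no count and 201 had at most 3. Of decreased features, 11 had no count and 42 at most 3 over WS48. Among the 200 transcripts with the highest mean over all 12 libraries, 3 increased and 11 decreased (7.0%).

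**Figure D1:**
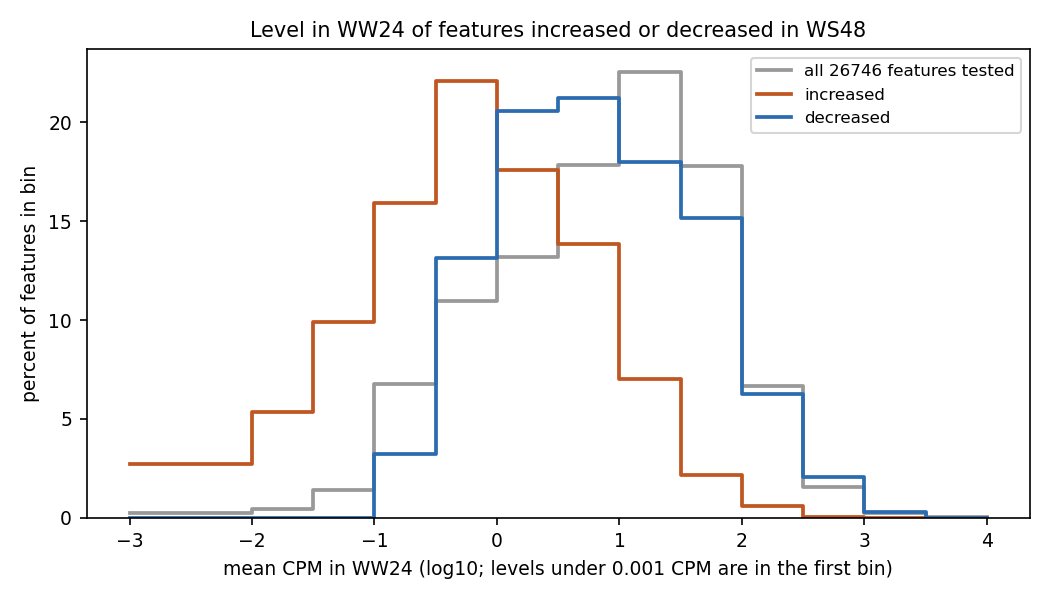
Distribution of the mean level in WW24 (x axis, log10 CPM) for the 2074 increased features, the 1272 decreased features and all 26746 features tested (y axis, percent of each set per bin of 0.5). The increased set is shifted to low levels, with a median of 0.625 CPM against 6.24 CPM for the decreased set. Part of this shift is set by the calls, since WW24 is the lower group of every increase.

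The widest increases began below 1 CPM in every control library. A gene of the PEBP (phosphatidylethanolamine-binding protein) family, which includes the flowering signal FT, measured 0.170, 0.557 and 0.366 CPM in WW24 and 111, 114 and 129 CPM in WS48 (Zm00001d010586, log2 change 8.37, SE 0.26, adjusted p = 1.38e-09). The 3 stressed libraries were close to each other and far above the highest control library. Nitrate reductase 1, which makes nitrite from nitrate as the entry to nitrogen assimilation, measured 0.0425, 0.152 and 0.114 CPM in WW24 and 22.4, 20.1 and 26.9 CPM in WS48 (Zm00001d018206, log2 change 7.81, SE 0.37, adjusted p = 1.15e-08). A type 2C protein phosphatase (PP2C), of the family that holds negative regulators of ABA signalling, measured 0.191, 0.228 and 0.137 and then 31.8, 36.9 and 39.2 CPM (Zm00001d025055, log2 change 7.59, SE 0.18, adjusted p = 8.52e-12). Again the groups were far apart in both genes, although control levels this low rest on few counts.

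Beta-amylase 1, which releases maltose from starch, measured 0.0638, 0.127 and 0.0916 CPM in WW24 and 16.5, 20.9 and 18.7 CPM in WS48 (Zm00001d014083, log2 change 7.62, SE 0.30, adjusted p = 1.83e-09). A gene described as eukaryotic release factor 1-3, a factor that ends translation at stop codons, went from 0.297 ± 0.149 to 42.7 ± 3.92 CPM (mean ± SD, n = 3), up by 7.18 (SE 0.28). A cytochrome P450 of subfamily 86B, whose Arabidopsis members make very long-chain suberin acids, rose by 6.99 (SE 0.33). A MADS-box gene rose by 6.99, or by 7.69 without WW24 replicate 1, and a polyketide cyclase and lipid transport superfamily gene by 6.80, or by 7.44 without WW24 replicate 2. A row labelled by similarity to class I small heat shock proteins of wheat and rice (HS16A, HS16B) rose by 6.68, or by 7.58 without WW24 replicate 2. For 3-ketoacyl-CoA synthase 6 (Zm00001d028241), which extends fatty acids for surface waxes, WW24 had 1 count, in replicate 1, and WS48 had 894. That is a ratio of 837 with a 95% counting interval of 150 to 33108, and the fitted log2 change of 9.27, or of 11.17 without WW24 replicate 1, is no more certain than this ratio.

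Unlike the increases, the widest decreases included abundant transcripts. Myo-inositol oxygenase 1, the enzyme that turns inositol into glucuronic acid for wall polysaccharides, measured 425, 581 and 601 CPM in WW24 and 8.62, 6.63 and 5.38 CPM in WS48 (log2 change −6.29, SE 0.21, adjusted p = 1.49e-09, Zm00001d046234). A gene of the methylenetetrahydrofolate reductase family, enzymes of one-carbon metabolism, measured 244, 276 and 287 and then 7.06, 6.40 and 5.17 CPM (Zm00001d029853, log2 change −5.44, SE 0.16, adjusted p = 1.94e-10). A family 32 glycosyl hydrolase, of the family that holds invertases, measured 43.7, 49.2 and 49.0 and then 0.527, 0.468 and 0.993 CPM (Zm00001d025943, log2 change −6.14, SE 0.25, adjusted p = 5.16e-09). For all 3 genes the highest stressed library was a small fraction of the lowest control library.

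Basic leucine zipper 9 (Zm00001d046937), a transcription factor, fell from 54.1 ± 5.63 to 1.69 ± 0.516 CPM, and the DUF594 gene Zm00001d052939, of unknown function, from 15.7 ± 3.52 to 0.0727 ± 0.0273 CPM. Deoxyhypusine synthase (Zm00001d003994), which modifies a translation factor, was uneven in the control at 6.45, 30.4 and 12.1 CPM and stood at 0.298, 0.234 and 0.186 CPM in WS48. Its log2 change was −6.08, or −5.27 without WW24 replicate 2. Other wide decreases were an S-adenosylmethionine-dependent methyltransferase (Zm00001d044762, log2 −5.67), pyruvate orthophosphate dikinase (Zm00001d038163, −4.86), an Octicosapeptide/Phox/Bem1p gene (Zm00001d021746, −4.63) and a D-arabinono-1,4-lactone oxidase family gene (Zm00001d049683, −4.53).

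**Figure D2:**
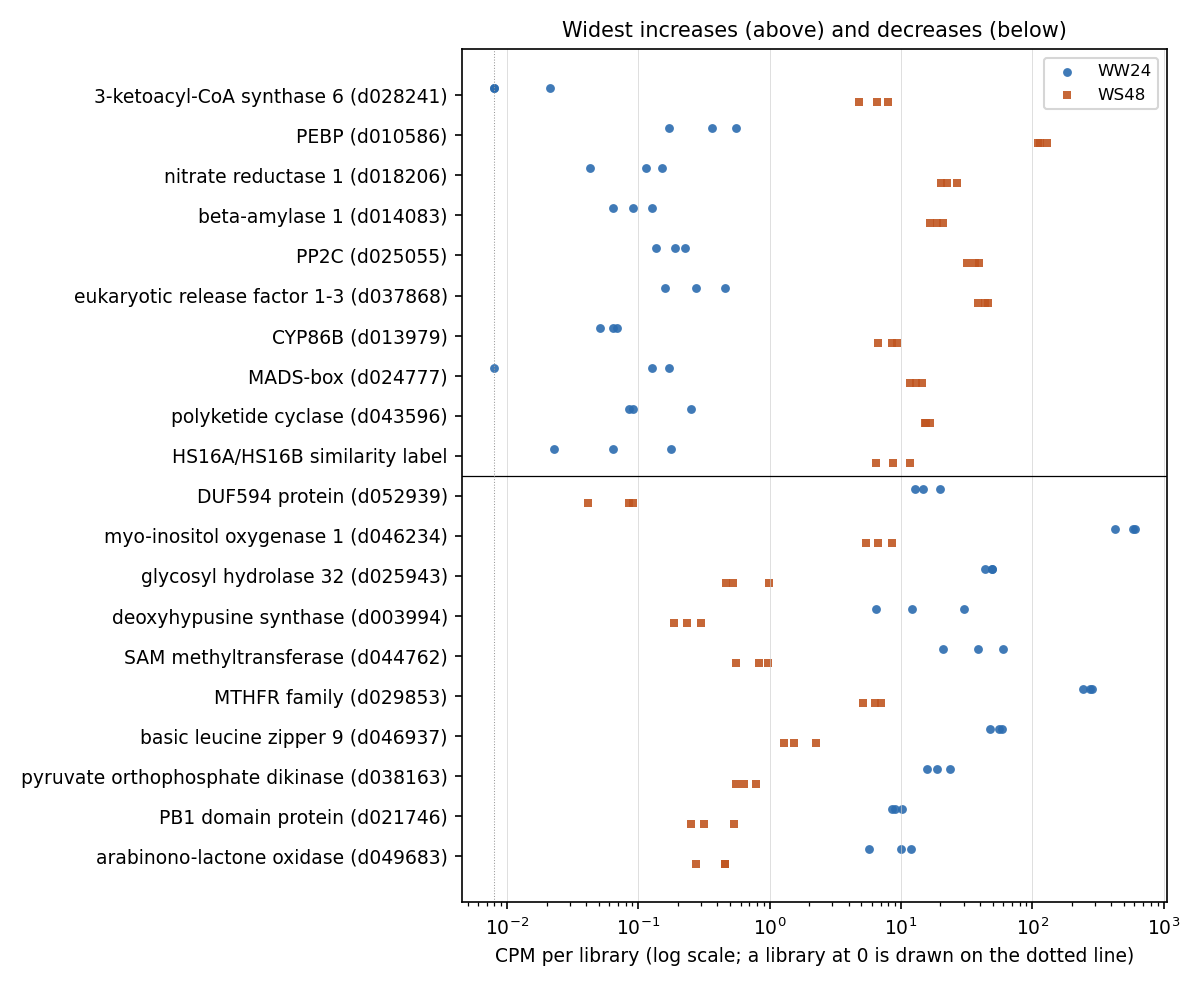
Level per library (x axis, CPM on a log scale) of the 10 widest increases and the 10 widest decreases among described features with an average log2 CPM of at least 2, with WW24 as circles and WS48 as squares. Rows were picked for groups that do not overlap, and increases start under 1 CPM while decreases start from up to 601 CPM. By the call, WW24 is the lower group of increases and the higher group of decreases.

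Some described transcripts were present in one group and all but absent in the other, and for these the counts over 3 libraries bound what can be said. WRKY DNA-binding protein 24 (Zm00001d012789) had no count in WW24 and 200 in WS48, at least 62.4-fold higher with 3 counts as the floor. CAP160 protein (Zm00001d032519), named after a cold acclimation protein of spinach, had 1 count in WW24, in replicate 2, and 592 in WS48, a ratio of 554 with a 95% counting interval of 99.1 to 21936. NADP-malic enzyme 3 (Zm00001d012764), which makes pyruvate from malate, had 2 counts in WW24, both in replicate 3, and 300 in WS48, a ratio of 140.5 (38.6 to 1165). These intervals cover counting error alone and take no account of the spread between libraries.

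Among decreases of this kind, a GRAS family transcription factor (Zm00001d009646) had 276 counts in WW24 and 1 in WS48, in replicate 2, a ratio of 295 (52.5 to 11681). A transmembrane amino acid transporter gene (Zm00001d018704) had 361 and 3, a ratio of 128 (43.6 to 626), but its control counts were uneven, at 5.85, 0.557 and 1.47 CPM. Its fitted log2 change of −6.76 became −5.39 without WW24 replicate 1, and −9.88 without WS48 replicate 2, which held all 3 stressed counts.

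Gene lists below were formed from gene descriptions, of which those for 1377 tested genes came from tables of genes kept for a change in these same libraries, this contrast included, and those for 130 from ortholog groups. Of the 1377, 1346 were called. Counts of called members are therefore close to complete by construction, are no evidence of a direction, and serve to show which members moved which way and by how much. Statements below on the direction of a family describe its listed members only. The summed level of a list can move against its count of calls, since abundant members weigh most in it.

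**Figure D3:**
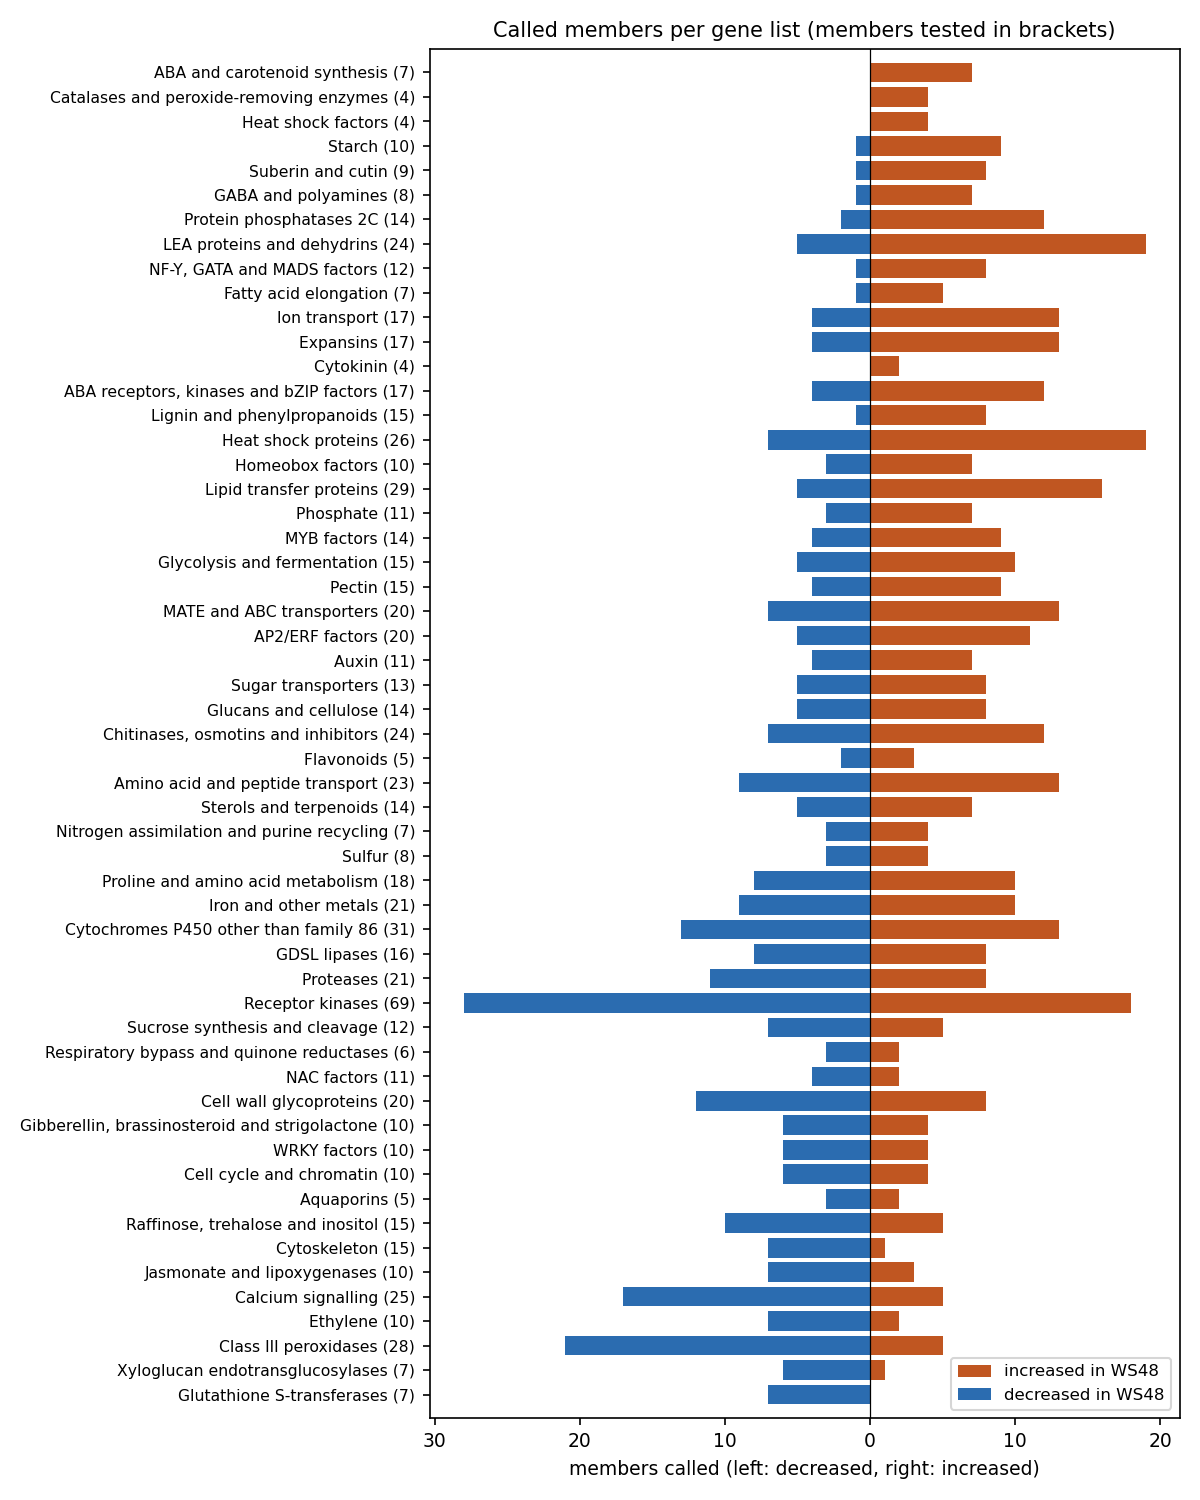
Number of called members per gene list (x axis, members), with increases to the right and decreases to the left, and the number of members tested in brackets. Lists at the top, such as ABA and carotenoid synthesis (7 of 7), hold increases, and lists at the bottom, such as glutathione S-transferases (7 of 7) and class III peroxidases (21 of 28), mainly hold decreases.

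The listed transcripts of ABA and carotenoid synthesis rose, from carotenoid precursors to carotenoid cleavage. All 7 tested members increased, with a median log2 change of 1.64. Nine-cis-epoxycarotenoid dioxygenase 9, of the family that cleaves carotenoids in the committed step to ABA, measured 1.06, 1.04 and 1.05 CPM in WW24 and 13.2, 12.9 and 17.4 CPM in WS48 (Zm00001d033222, log2 change 3.78, SE 0.28, adjusted p = 6.59e-07). Phytoene synthase, the first enzyme of the carotenoid route, measured 8.51, 7.87 and 8.31 and then 36.7, 34.6 and 34.9 CPM (Zm00001d021410, log2 change 2.10, SE 0.08, adjusted p = 1.0e-09). Control libraries of both genes differed little among themselves, and no stressed library came near them. Phytoene desaturation 1, listed by its name alone, changed less, by 1.29 (SE 0.09), and its place in this route was not tested. The others were 2 beta-hydroxylase 1 genes (log2 1.79 and 1.64), zeaxanthin epoxidase (log2 1.62) and a geranylgeranyl pyrophosphate synthase (log2 1.62, or 2.29 without WW24 replicate 3).

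In ABA signalling, most PP2C transcripts rose. Of 14 PP2C members 12 increased and 2 decreased, with a median of 1.92. Highly ABA-induced PP2C gene 2 (Zm00001d020100) measured 0.957, 0.835 and 0.550 CPM in WW24 and 22.7, 24.1 and 22.9 CPM in WS48 (log2 change 4.89, SE 0.26, adjusted p = 6.09e-08), and a homolog of ABI2 (Zm00001d044301) rose from 22.1 ± 0.961 to 73.3 ± 5.45 CPM. Of the receptors and kinases, PYR1-like 2, an ABA receptor, fell (log2 −1.31), SNF1-related protein kinase 2.10 fell (log2 −1.15) and a regulatory subunit of SNF1-related kinases rose (log2 1.10). Among ABA-responsive bZIP transcription factors, the 5 genes described as ABRE-binding factor 2 increased by 1.39 to 2.67, including Zm00001d031790 at 12.5, 11.8 and 12.7 and then 44.7, 43.3 and 41.7 CPM (log2 change 1.81, SE 0.07, adjusted p = 9.06e-10). ABCG25 (Zm00001d053049), an ABA exporter in Arabidopsis, rose from 2.68 ± 0.117 to 12.3 ± 0.550 CPM. Of the 17 receptor, kinase and bZIP members, 12 increased, 4 decreased and 1 was not called.

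Other hormone genes were split. In the ethylene list 7 of 10 decreased and 2 increased, and the decreases included both 1-aminocyclopropane-1-carboxylate synthases, which make the ethylene precursor (log2 −2.63 and −2.43). Ethylene responsive element binding factor 1 (Zm00001d002762) was at 17 ± 3.86 CPM in WW24 and 4.75 ± 0.837 CPM in WS48 (log2 change −1.84, SE 0.20, adjusted p = 1.07e-05). Genes of the jasmonate and lipoxygenase list also fell more often than they rose (7 and 3 of 10). That list nevertheless summed to 273 to 357 CPM per library in WW24 and 317 to 416 CPM in WS48. The 3 increases were in genes of the lipoxygenase (PLAT/LH2) family, and whether these serve jasmonate synthesis was not tested. One (Zm00001d002000) rose by 3.72, or by 5.18 without WW24 replicate 1, and the more abundant lipoxygenase 1 was at 34.5, 34.1 and 33.3 CPM in WW24 and 211, 235 and 268 CPM in WS48 (Zm00001d033623, log2 change 2.81, SE 0.14, adjusted p = 1.39e-08). Allene oxide cyclase 3, which makes the ring of jasmonate precursors, fell by a log2 change of −1.17 and another PLAT/LH2 lipoxygenase (Zm00001d041204) by −2.54. Of 11 auxin members 7 increased and 4 decreased, among the former indole-3-butyric acid response 1 (Zm00001d038897), of the route from indole-3-butyric acid to auxin in Arabidopsis, at 4.45, 5.42 and 5.79 and then 23.1, 21.1 and 23.3 CPM (log2 change 2.11, SE 0.12, adjusted p = 2.20e-08).

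Within the gibberellin, brassinosteroid and strigolactone list, 4 of 10 increased and 6 decreased. Transcripts of the same small secreted family went both ways: a gibberellin-regulated family gene (Zm00001d033369) measured 0.234, 0.0253 and 0.275 CPM in WW24 and 13.2, 13.6 and 15.1 CPM in WS48 (log2 change 6.23, SE 0.40, adjusted p = 3.61e-07), and GAST1 protein homolog 3 (Zm00001d001852) measured 2.21, 2.61 and 2.24 and then 0.160, 0.234 and 0.0827 CPM (log2 change −3.87, SE 0.37, adjusted p = 3.30e-06). Both ent-kaurenoic acid hydroxylase 2 genes, of gibberellin synthesis, decreased (log2 −3.39 and −3.33, the second −4.89 without WS48 replicate 3). A CYP90D gene, of brassinosteroid synthesis, rose by 1.33 (SE 0.15). Without WW24 replicate 2 only 2 members of the list were called increased. The cytokinin list had 4 members, of which 2 increased, the histidine kinase receptor gene Zm00001d013412 by 1.02 and the lysine decarboxylase family gene Zm00001d011246 by 1.24. The receptor gene lost its call without WS48 replicate 3 or WW24 replicate 2.

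Transcripts of 2 genes, for the synthesis of proline and of γ-aminobutyric acid, rose to high levels. Delta 1-pyrroline-5-carboxylate synthase 2, which makes proline from glutamate, measured 19.4, 18.3 and 24.5 CPM in WW24 and 203, 181 and 200.5 CPM in WS48 (Zm00001d012391, log2 change 3.23, SE 0.14, adjusted p = 4.91e-09). Glutamate decarboxylase, which makes γ-aminobutyric acid (GABA), measured 48.0, 72.5 and 59.1 and then 327, 334 and 375 CPM (Zm00001d031749, log2 change 2.53, SE 0.13, adjusted p = 2.63e-08). For both genes even the nearest libraries of the 2 groups were several-fold apart. Of 8 GABA and polyamine members 7 increased, with 3 genes for aldehyde dehydrogenase 5F1, the last step of GABA breakdown, at 1.68 to 1.86, and arginine decarboxylase 2, which starts polyamine synthesis, at 1.06 (SE 0.10). The 8th, a copper amine oxidase that breaks polyamines down, decreased (log2 −1.29).

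Amino acid metabolism was split, with 10 of 18 members increased and 8 decreased (5 without scaling factors, without WS48 replicate 2 or without WW24 replicate 1). This list, which includes the proline synthesis gene, summed to 1674.5 to 2139.8 CPM per library in WW24 and 1168.4 to 1298.0 CPM in WS48. A glutamine synthetase (Zm00001d033747) rose by 3.44 and anthranilate synthase 2, of tryptophan synthesis, from 11.8 ± 0.868 to 41.8 ± 4.41 CPM. Glutamate dehydrogenase 2 (Zm00001d025984), which can release ammonium from glutamate, dropped from 124, 151 and 152 to 53.9, 51.9 and 50.8 CPM (log2 change −1.45, SE 0.08, adjusted p = 3.46e-08), and glutamate dehydrogenase 1 by a log2 change of −1.67. Of 7 nitrogen genes 4 increased, with nitrite reductase 1 (Zm00001d018161) rising beside nitrate reductase from 2.90 ± 0.551 to 12.2 ± 1.55 CPM. A transporter of nitrate, nitrate transporter 2.4, changed the other way (log2 −3.98), as did a nucleobase permease (Zm00001d017531, −1.45).

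Most starch genes rose, and enzymes that cleave sucrose went both ways. Of 10 starch members 9 increased, with genes of synthesis and breakdown alike: a glucose-1-phosphate adenylyltransferase (Zm00001d039131), which makes ADP-glucose for starch, measured 7.10, 6.88 and 5.47 CPM in WW24 and 49.1, 48.2 and 42.1 CPM in WS48 (log2 change 2.84, SE 0.13, adjusted p = 3.73e-09), and alpha-amylase-like 3 (Zm00001d043662) rose by 1.85 (SE 0.08). The member that fell was a chloroplast beta-amylase (log2 −2.87, or −2.03 without WW24 replicate 1). Sucrose synthase 3, which cleaves sucrose to UDP-glucose, measured 16.4, 13.1 and 12.0 CPM in WW24 and 94.4, 91.2 and 103 CPM in WS48 (Zm00001d029091, log2 change 2.79, SE 0.12, adjusted p = 3.11e-09). Cytosolic invertase 2, which cleaves sucrose to free hexoses, measured 196, 213 and 237 and then 65.8, 62.5 and 65.5 CPM (Zm00001d004804, log2 change −1.74, SE 0.08, adjusted p = 6.33e-09). Sucrose synthase 1 rose as well (log2 2.55) while sucrose synthase 4 fell (log2 −1.29), and the 3 sucrose phosphate synthases increased by 1.48 to 2.38 (the last 3.29 without WW24 replicate 3). In the sucrose list as a whole 5 of 12 increased and 7 decreased.

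Hexose entry into glycolysis showed the same mixture. Hexokinase 2, which phosphorylates hexoses, measured 80.7, 103 and 115 CPM in WW24 and 13, 14.0 and 13.6 CPM in WS48 (Zm00001d037689, log2 change −2.88, SE 0.13, adjusted p = 7.83e-09), and phosphofructokinase 2 measured 0.510, 0.253 and 0.343 and then 8.14, 6.16 and 7.28 CPM (Zm00001d025659, log2 change 4.26, SE 0.27, adjusted p = 7.53e-08). Of 15 glycolysis and fermentation members 10 increased and 5 decreased. Their list summed to 253 to 342 CPM per library in WW24 and to less, 188 to 201 CPM, in WS48. Alcohol dehydrogenase 1 was among the decreases (log2 −1.51), as was phosphoenolpyruvate carboxykinase 1 (log2 −1.76).

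Of 15 genes of raffinose, trehalose and inositol metabolism, myo-inositol oxygenase 1 included, 10 decreased and 5 increased. Seed imbibition 2 (Zm00001d003277), related to raffinose synthases, measured 70.4, 92.1 and 97.8 CPM in WW24 and 8.66, 6.63 and 8.15 CPM in WS48 (log2 change −3.47, SE 0.14, adjusted p = 3.23e-09), while its namesake Zm00001d019163 rose from 238, 100.1 and 116 to 1605, 1509.9 and 1962 CPM (log2 3.48). This gene held most of the summed level of the list in WS48, 1788 to 2213 CPM per library, and the list summed to 1137 to 1201 CPM in WW24. Alpha-galactosidase 1, which removes galactose from raffinose sugars, went up from 0.298, 0.253 and 0.114 to 16.8, 22.5 and 24.0 CPM (Zm00001d032608, log2 change 6.55, SE 0.24, adjusted p = 1.0e-09). All 4 trehalose phosphate synthase or phosphatase genes decreased, by −1.20 to −2.09 on the log2 scale, and the smallest of these changes lost its call without WW24 replicate 1.

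Membrane transport changed in both directions within most families. Of 13 sugar transporters 8 increased and 5 decreased, while their list summed to 637 to 727 CPM per library in WW24 and 321 to 364 CPM in WS48. Sugar transporter 1 (Zm00001d018627), a hexose importer in Arabidopsis, measured 246, 222 and 261 CPM in WW24 and 59.8, 62.4 and 67.0 CPM in WS48 (log2 change −1.94, SE 0.09, adjusted p = 4.85e-09), and sugar transporter 14 fell by a log2 change of −1.39. Genes named polyol/monosaccharide transporter 5 were divided, with 4 increases of 1.21 to 3.96 and 1 decrease (log2 −2.01). Of 23 amino acid and peptide transporters 13 increased and 9 decreased. Amino acid permease 2 (Zm00001d053143) rose from 2.33 ± 0.164 to 25.2 ± 1.00 CPM and amino acid permease 7 (Zm00001d025665) from 2.50 ± 0.470 to 26.5 ± 3.22 CPM, and a nodulin MtN21 family gene (Zm00001d033284) fell from 5.01 ± 0.123 to 0.491 ± 0.168 CPM.

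The listed ion transport genes mostly rose, 13 of 17 against 4 decreases. Their summed levels overlapped, at 612 to 940 CPM per library in WW24 and 641 to 787 CPM in WS48. A proton-pumping pyrophosphatase, which energises the vacuole membrane, measured 9.06, 8.50 and 7.01 CPM in WW24 and 139, 129.9 and 145 CPM in WS48 (Zm00001d053727, log2 change 4.07, SE 0.12, adjusted p = 6.63e-11). A mechanosensitive channel of small conductance, which opens as membrane tension rises, measured 1.55, 1.8 and 1.44 and then 34.2, 31.9 and 36.5 CPM (Zm00001d051415, log2 change 4.42, SE 0.21, adjusted p = 1.28e-08). Libraries within each group lay close together and the groups did not overlap. The plasma membrane proton pumps H(+)-ATPase 11 and 6 rose by 3.26 and 2.78, and an autoinhibited calcium pump (isoform 8, Zm00001d026253) by 2.12 (SE 0.12). A divalent ion symporter of the metal list (Zm00001d027667) reached 268, 259 and 282 CPM from 24.8, 22.7 and 25.9 CPM (log2 change 3.46, SE 0.09, adjusted p = 2.55e-11). In that list 10 of 21 increased and 9 decreased, among the latter both FER-like regulators of iron uptake (log2 −1.82 and −1.05, the second not called without WS48 replicate 2 or WW24 replicate 2).

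Phosphate and sulfur genes rose in part. Of 11 phosphate members 7 increased and 3 decreased, with an SPX-domain transporter (Zm00001d002614) at 5.66, 5.85 and 5.91 CPM in WW24 and 38.9, 46.2 and 51.4 CPM in WS48 (log2 change 2.97, SE 0.12, adjusted p = 1.17e-09) and purple acid phosphatase 27 (Zm00001d030765), a secreted phosphatase, at 1.97. Of 8 sulfur members 4 increased and 3 decreased, and sulfate transporter 3;1 (Zm00001d027749) rose from 32 ± 5.52 to 142 ± 2.03 CPM. Of 20 MATE and ABC transporters 13 increased and 7 decreased, while their list summed to 518 to 572 CPM per library in WW24 and 385 to 430 CPM in WS48. Among MATE efflux genes Zm00001d053234 rose from 4.30 ± 0.828 to 56.1 ± 6.39 CPM and Zm00001d006171 fell by −3.41, or by −4.07 without WS48 replicate 3, and the ABC-2 type transporter Zm00001d046537 fell from 3.37 ± 0.595 to 0.195 ± 0.0321 CPM.

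Aquaporins were few in the lists, with 2 of 5 increased and 3 decreased. Among them the abundant water channels of the plasma membrane fell. Plasma membrane intrinsic protein 2 (Zm00001d019563) measured 1586, 1678 and 1701 CPM in WW24 and 677, 619 and 813 CPM in WS48 (log2 change −1.24, SE 0.10, adjusted p = 1.10e-06), and a namesake (Zm00001d051174) measured 329.8, 378 and 384 and then 136, 132 and 158 CPM (log2 change −1.36, SE 0.10, adjusted p = 2.48e-07). The stressed libraries of both genes lay well below the lowest control library. The rarer NOD26-like intrinsic protein 5;1 (Zm00001d052261), of a group that carries boric acid in Arabidopsis, rose from 2.35 ± 0.443 to 8.45 ± 1.57 CPM.

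In the cell wall, most expansins rose and most xyloglucan enzymes fell. Of 17 expansins, which loosen walls without cutting polymers, 13 increased and 4 decreased, with a median of 1.5. Expansin B2 (Zm00001d047096) measured 41.5, 49.4 and 47.1 CPM in WW24 and 139, 130.2 and 116 CPM in WS48 (log2 change 1.48, SE 0.11, adjusted p = 5.29e-07), and another expansin B2 (Zm00001d027283) measured 4.91, 5.19 and 4.65 and then 27.5, 28.5 and 30.5 CPM (log2 change 2.55, SE 0.12, adjusted p = 4.68e-09). A further gene of that name, Zm00001d026170, had no count in the 3 WW24 libraries and 648 in WS48, at least 202-fold higher again with 3 counts as the floor. Expansin 11 and B2 genes were among the 4 decreases (log2 −1.48, −3.51 and −2.46, with −4.61 for the second without WS48 replicate 3), beside an expansin-like A1 gene (log2 −1.40) whose call was lost without WS48 replicate 1 or 3 or WW24 replicate 1. Beta-expansins form a family of similar copies in grasses, and whether reads were split between copies was not tested.

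Xyloglucan endotransglucosylase/hydrolases, which cut and rejoin xyloglucan chains, decreased in 6 of 7 cases. The gene numbered 25 (Zm00001d014617) measured 52.8, 58.8 and 55.3 CPM in WW24 and 13.9, 14.3 and 18.8 CPM in WS48 (log2 change −1.83, SE 0.11, adjusted p = 4.52e-08). The other decreases ran from −1.37 to −1.96, and the exception rose by 2.61, or by 3.25 without WW24 replicate 3. Pectin genes were mainly increased (9 of 15, with 4 decreased), with a pectin methylesterase inhibitor family gene (Zm00001d016740) at 0.574, 0.278 and 0.321 and then 14.6, 17 and 17.1 CPM (log2 change 5.34, SE 0.32, adjusted p = 1.29e-07) and galacturonosyltransferase-like 4, of pectin synthesis, at 2.72 (SE 0.16). The pectin list nevertheless summed to 212 to 243 CPM per library in WW24 and 199 to 213 CPM in WS48. Of 14 glucan and cellulose members 8 increased and 5 decreased, with alpha-xylosidase 1 (Zm00001d039994), which trims xyloglucan, rising from 22.9 ± 1.94 to 107 ± 13.6 CPM.

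Wall glycoproteins parted by family. All 8 fasciclin-like arabinogalactan proteins, surface proteoglycans, fell, and FASCICLIN-like arabinogalactan-protein 10 (Zm00001d027471) measured 116, 113 and 128 CPM in WW24 and 17.7, 18.3 and 17.6 CPM in WS48 (log2 change −2.73, SE 0.09, adjusted p = 1.65e-10). All 8 genes named as hydroxyproline-rich glycoproteins rose, and the most abundant, Zm00001d028998, measured 453, 467 and 474 and then 1479.6, 1501 and 1449 CPM (log2 change 1.67, SE 0.09, adjusted p = 1.45e-08). The widest of the 8, Zm00001d022057, had 1 count in WW24, in replicate 1, and 531 in WS48, a ratio of 497 with a 95% counting interval of 88.9 to 19680. In the whole list 8 of 20 increased and 12 decreased.

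Class III peroxidases, secreted enzymes that stiffen walls or make reactive oxygen, decreased in 21 of 28 cases and increased in 5. The abundant Zm00001d040581 measured 647, 811 and 873 CPM in WW24 and 131, 128 and 153 CPM in WS48 (log2 change −2.50, SE 0.13, adjusted p = 2.80e-08). Zm00001d009138 measured 87.1, 97.9 and 102 and then 30.2, 27.2 and 23.4 CPM (log2 change −1.83, SE 0.12, adjusted p = 1.76e-07). No stressed library of either came near the lowest control library. Against this, Zm00001d049071 had no count in WW24 and 848 in WS48, at 5.71, 7.63 and 4.96 CPM, at least 265-fold higher against the same floor. A split of reads between similar peroxidase genes was not tested either.

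Of 15 lignin and phenylpropanoid genes 8 increased, 1 decreased and 6 were not called. The decrease was in the most abundant member, a cinnamyl alcohol dehydrogenase homolog (Zm00001d020401), at 218, 319.7 and 309 CPM in WW24 and 93.0, 83.2 and 117 CPM in WS48 (log2 −1.53), and the list summed to 403 to 523 and then 333 to 399 CPM. No increased member reached 10 CPM in a control library. Laccase 7 (Zm00001d048759), of a family that polymerises lignin units, measured 7.72, 8.15 and 8.22 CPM in WW24 and 31.3, 35.0 and 30.8 CPM in WS48 (log2 change 2.01, SE 0.19, adjusted p = 7.28e-06). A hydroxycinnamoyl transferase of lignin precursor synthesis (Zm00001d027946) measured 0.936, 0.202 and 0.527 and then 14.9, 12.2 and 14.0 CPM (log2 4.58, or 5.20 without WW24 replicate 1), and laccase 12 (Zm00001d012477) 0.128, 0.0759 and 0.0229 and then 4.42, 6.27 and 2.44 CPM (log2 5.79, or 6.42 without the same library). Of 5 flavonoid members 3 increased and 2 decreased. A chalcone synthase family gene (Zm00001d052673), the entry to flavonoids, was uneven in both groups, at 0.128, 0.0506 and 0.458 and then 14.4, 9.50 and 24.5 CPM (log2 6.22, or 7.41 without WW24 replicate 3), and another (Zm00001d052915) fell by −1.65.

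Most of the listed suberin genes rose. Suberin is a waxy polyester laid down in endodermal and exodermal walls, and 8 of 9 suberin and cutin members increased, with a median of 4.28. Fatty acid reductase 1 (Zm00001d000107), which makes suberin alcohols, measured 1.85, 2.78 and 4.56 CPM in WW24 and 48.5, 42.7 and 43.6 CPM in WS48 (log2 change 3.88, SE 0.37, adjusted p = 2.67e-05). CYP86B (Zm00001d013979) measured 0.0638, 0.0506 and 0.0687 and then 8.48, 9.35 and 6.66 CPM. Glycerol-3-phosphate acyltransferase 5, which makes the suberin monomer backbone, rose in both copies, but most of its control reads lay in WW24 replicate 1, at 0.319, 0.0506 and 0.0458 CPM for Zm00001d038366 and 0.234, 0.0253 and 0.0229 CPM for Zm00001d010520, against 5.57, 5.36 and 3.85 and 1.88, 2.32 and 1.68 CPM in WS48. Without that library the log2 changes of 5.06 and 4.28 became 6.6 and 6.19. The call of the second fatty acid reductase 1 gene (Zm00001d019850, 3.63) was lost without any 1 of 4 libraries and held at 6.07 without WW24 replicate 1. Glycerol-3-phosphate acyltransferase 1 fell (log2 −4.29, or −7.27 without WS48 replicate 3).

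Lipid genes near suberin followed in part. Of 7 fatty acid elongation members 5 increased and 1 decreased. The second 3-ketoacyl-CoA synthase 6 gene (Zm00001d037328) had 1 count in WW24, in replicate 1, and 397 in WS48, a ratio of 372 with a 95% counting interval of 66.4 to 14723. 3-Ketoacyl-CoA synthase 11 (Zm00001d014168) rose from 0.807 ± 0.366 to 7.42 ± 0.452 CPM. Of 29 lipid transfer proteins, small carriers of lipids to the surface, 16 increased and 5 decreased, with Zm00001d033595 at 0.851, 0.380 and 0.527 and then 13.1, 11.9 and 14.7 CPM (log2 change 4.47, SE 0.22, adjusted p = 8.26e-09) and Zm00001d022195 at 5.91, 7.26 and 7.90 and then 0.848, 0.935 and 0.848 CPM (log2 change −3.0, SE 0.17, adjusted p = 3.46e-08). The lipid transfer list summed to 2590.2 to 3001.1 CPM per library in WW24 and 2042.5 to 2281.7 CPM in WS48. GDSL lipases were even, 8 of 16 each way, and the abundant Zm00001d016130 fell from 330.3 ± 50.6 to 130.3 ± 5.38 CPM. Farnesyl diphosphate synthase 1 (Zm00001d011673), which feeds sterol and terpenoid synthesis, measured 0.574, 1.29 and 1.01 and then 30.9, 32.6 and 38.5 CPM (log2 change 5.17, SE 0.26, adjusted p = 5.20e-08). Of 14 sterol and terpenoid members 7 increased and 5 decreased, among the latter a CYP710A gene that makes stigmasterol in Arabidopsis (Zm00001d039384, 144 ± 7.99 to 43.8 ± 3.18 CPM). Increases of the terpenoid cyclases Zm00001d024207 (log2 6.17) and Zm00001d024211 (log2 6.24) were not called without any 1 WW24 library, ran to 7.63 and 6.93 without WW24 replicate 1 and to 4.32 and 4.31 without WS48 replicate 3.

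Markers of suberised cells summed to 0.658 to 0.936 CPM per WW24 library and 17.4 to 24.3 CPM per WS48 library (4 of 4 called increased), and whether the cells or their RNA became more numerous was not tested. The markers of xylem and secondary wall summed to 1110 to 1188 CPM in WW24 and 348 to 396 CPM in WS48. Their sum was carried by both FASCICLIN-like arabinogalactan-protein 11 genes, which fell with cellulose synthase A9 (log2 −1.21), a cellulose synthase that is not particular to xylem in Arabidopsis, while laccase 17 and myb domain protein 63, of lignin synthesis, rose (log2 2.35 and 2.18). Phloem markers summed to 51.0 to 53.4 and 42.7 to 48.5 CPM, with 2 of 4 called decreased. Root hair markers summed to 26.5 to 33.3 and 34.6 to 38.4 CPM, with RHD SIX-LIKE 1 and expansin A7 increased and a proline extensin-like receptor kinase decreased. Apart from 3 phloem proteins and 1 green tissue marker, these markers came from the tables the study had picked by change, so the sums describe the libraries and test no cell type.

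**Figure D4:**
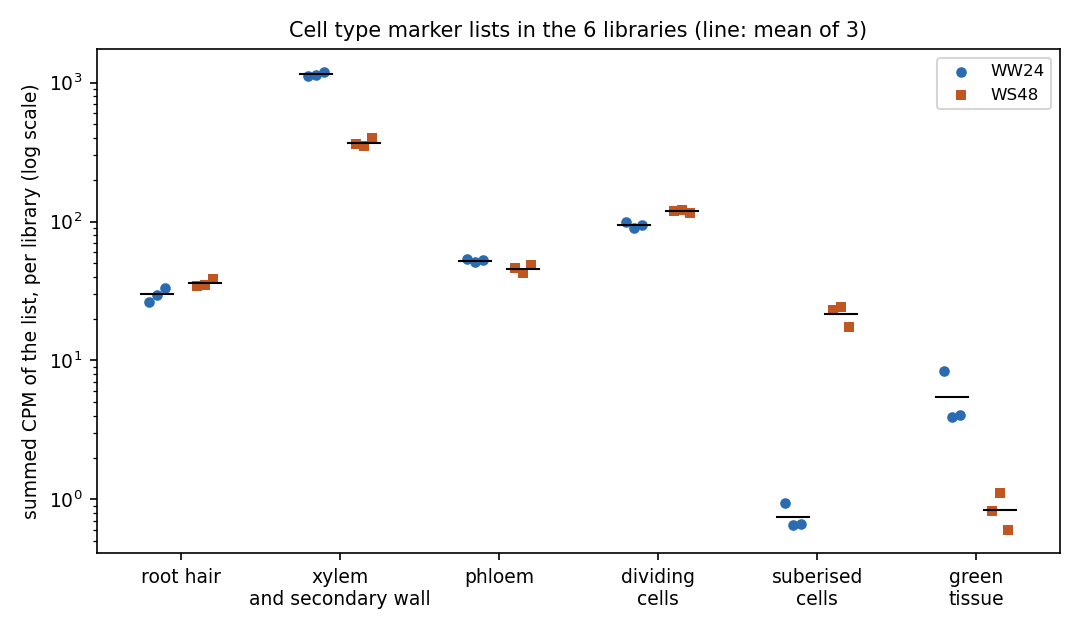
Summed level of each cell type marker list (y axis, CPM on a log scale) in the 3 WW24 libraries (circles) and the 3 WS48 libraries (squares), with a line at each mean. The suberised list is higher in WS48 by more than an order of magnitude and the xylem list lower. The root hair, phloem and dividing cell lists differ less but do not overlap between groups, with phloem lower in WS48 and the others higher. Green tissue is highest in WW24 replicate 1, at 8.36 CPM.

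Markers of dividing cells moved apart from each other. Of 5, cyclin D5;1 (Zm00001d028092), CYCLIN D4;1 and histone H1-3 increased, and origin recognition complex protein 6 and histone H2AX, both of DNA replication and repair, decreased. Origin recognition complex protein 6 measured 32.7, 33.0 and 37.6 CPM in WW24 and 15.9, 17 and 13.2 CPM in WS48 (log2 change −1.16, SE 0.11, adjusted p = 2.55e-06). Histone H1-3, a linker histone induced by drought in Arabidopsis, measured 17.3, 5.85 and 5.93 and then 63.8, 68.2 and 65.5 CPM, with a log2 change of 2.75, or 3.48 without WW24 replicate 1. Cyclin D5;1 rose from 0.685 ± 0.480 to 6.22 ± 0.333 CPM (log2 3.20, or 3.92 without WW24 replicate 2). The list summed to 90.4 to 99.0 CPM in WW24 and 116 to 120 CPM in WS48, with histone H2AX and origin recognition complex protein 6 its largest parts in WW24 and histone H1-3 in WS48. In the wider cell cycle and chromatin list 4 of 10 increased and 6 decreased (3 without scaling factors), and the decreases were all small, from −1.03 (not called without WS48 replicate 3 or WW24 replicate 2) to −1.26. Of the green tissue markers, light-harvesting chlorophyll B-binding protein 3 fell from 3.60, 3.90 and 4.03 to 0.802, 1.06 and 0.60 CPM, and photosystem II subunit O-2, at 4.76, 0.0253 and 0.0229 CPM over the WW24 libraries and near 0 in WS48, did not pass the filter.

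Several abundant cytoskeleton transcripts fell. Actin 7 (Zm00001d032480) measured 504, 559.6 and 581 CPM in WW24 and 129, 127 and 135 CPM in WS48 (log2 change −2.08, SE 0.10, adjusted p = 6.37e-09), and tubulin alpha-5 (Zm00001d006651), a microtubule subunit, measured 526, 581 and 608 and then 188, 189 and 209 CPM (log2 change −1.55, SE 0.08, adjusted p = 1.87e-08). Both groups of libraries were tight and far from overlapping. A second tubulin alpha-5 (Zm00001d021891) fell by −1.31 and tubulin beta-5 by −2.0. In the list 7 of 15 decreased and 1 increased, actin depolymerizing factor 6 (log2 1.43). Of 9 genes named actin 7, 7 were not called, with log2 changes of −0.58 to 0.59, and reads of such similar copies may be split unevenly.

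Transcripts of the 4 listed enzymes that remove hydrogen peroxide rose, while those of glutathione S-transferases fell. Class III peroxidases, described above, were listed apart and mostly decreased. According to the study, higher catalase transcript levels did not come with higher enzyme activity. Catalase 1 (Zm00001d054044), which splits hydrogen peroxide, measured 73, 34.6 and 34.3 CPM in WW24 and 308, 298 and 329 CPM in WS48 (log2 change 2.72, SE 0.41, adjusted p = 6.58e-04), with WW24 replicate 1 above the other controls. Catalase 2, glutathione peroxidase 1 and a thylakoidal ascorbate peroxidase also increased (log2 2.82, 1.06 and 1.65), and glutathione peroxidase 1 lost its call without WS48 replicate 3. All 7 glutathione S-transferases, enzymes of detoxification, decreased, with log2 changes of −1.10 to −4.33. Without WW24 replicate 1 the first was −0.90 and not called, and the last was −2.73. The most abundant, Zm00001d024839, measured 1695, 1861 and 1553 and then 757, 726 and 848 CPM (log2 change −1.13, SE 0.14, adjusted p = 2.94e-05), a change not called without scaling factors, and Zm00001d029696 measured 45.8, 32.7 and 16.6 and then 6.51, 7.40 and 6.35 CPM. Alternative oxidase 1A (Zm00001d002436), the bypass of the cytochrome pathway in mitochondria, fell from 58.9 ± 6.69 to 16.7 ± 4.54 CPM. The external NAD(P)H dehydrogenases diverged, with B1 (Zm00001d036557) at 28.9, 29.9 and 25.8 and then 82.6, 86.7 and 92.8 CPM (log2 change 1.63, SE 0.08, adjusted p = 6.82e-09) and B2 (Zm00001d049597) at 430.0, 585 and 522 and then 239, 224 and 222 CPM (log2 change −1.17, SE 0.10, adjusted p = 1.11e-06). In that list of respiratory bypass enzymes 2 of 6 increased and 3 decreased.

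Transcripts of protective proteins of drying cells rose in most listed cases. Late embryogenesis abundant (LEA) proteins and dehydrins are hydrophilic and accumulate in seeds and dehydrating tissue, and 19 of 24 increased, with 5 decreases. A dehydrin (Zm00001d037894) measured 1.77, 1.11 and 1.10 CPM in WW24 and 106, 129 and 113 CPM in WS48 (log2 change 6.43, SE 0.17, adjusted p = 6.63e-11). The more abundant dehydrin Zm00001d051420 measured 219, 223 and 244 and then 815, 808 and 736 CPM (log2 change 1.78, SE 0.10, adjusted p = 2.03e-08). An LEA family gene (Zm00001d038870) rose from 0.15 ± 0.0962 to 10.7 ± 1.90 CPM. The 5 that decreased, by −1.10 (not called without WW24 replicate 1) to −1.99, were described as LEA hydroxyproline-rich or LEA-related proteins.

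Transcripts of the listed heat shock proteins also rose in most cases, 19 of 26 with 7 decreases. A small heat shock protein (HSP20-like, Zm00001d018298) measured 4.15, 4.15 and 4.26 CPM in WW24 and 69.9, 78.3 and 75.9 CPM in WS48 (log2 change 4.16, SE 0.19, adjusted p = 1.39e-08). DNAJ co-chaperones went both ways, with Zm00001d052947 up by 2.14 and Zm00001d042653 down by −1.87. All 4 heat shock factors increased. Heat shock transcription factor C1 (Zm00001d046299) rose from 15.0 ± 1.18 to 56.7 ± 2.06 CPM and A6B (Zm00001d032923) from 19.0 ± 1.63 to 61.4 ± 5.82 CPM. The second C1 gene (Zm00001d016255) measured 1.40, 0.0759 and 0.0229 and then 22.3, 21.2 and 20.7 CPM, and its log2 change was 5.33, or 8.71 without WW24 replicate 1, which held most of the control reads.

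Defence-related proteins were mixed, with 12 of 24 chitinases, osmotins and inhibitors increased and 7 decreased (4 without WS48 replicate 2). A chitinase (Zm00001d025753, homolog of carrot EP3-3) measured 0.298, 0.0506 and 0.298 CPM in WW24 and 16.4, 16.2 and 18.2 CPM in WS48 (log2 change 6.24, SE 0.34, adjusted p = 5.58e-08). Proteases fell slightly more often than they rose, 11 and 8 of 21, with metacaspase 5 (Zm00001d010675), a cysteine protease, at 75.3, 86.4 and 86.4 and then 16.0, 16.3 and 17.5 CPM (log2 change −2.32, SE 0.08, adjusted p = 4.68e-10). Cytochromes P450 outside family 86 were even, 13 of 31 each way, with the CYP71B gene Zm00001d015589 falling from 22.1 ± 0.938 to 4.83 ± 1.06 CPM.

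The listed transcription factors differed in direction between families. Of 14 MYB factors 9 increased and 4 decreased, and myb domain protein 305 (Zm00001d027623) measured 1.49, 0.683 and 0.733 CPM in WW24 and 54.3, 57.3 and 55.5 CPM in WS48 (log2 change 5.82, SE 0.25, adjusted p = 1.62e-08). Myb domain protein 86 (Zm00001d039700) went the other way, with 529 counts in WW24 and 1 in WS48, in replicate 3, a ratio of 565 with a 95% counting interval of 101 to 22351. A NAC gene (Zm00001d038221), of a plant family active in stress and wall formation, measured 12.3, 11.5 and 12.0 and then 78.9, 74.5 and 77.1 CPM (log2 change 2.69, SE 0.15, adjusted p = 4.52e-08). It was 1 of 2 increases among 11 NAC factors, of which 4 decreased. WRKY factors, often of defence, decreased in 6 of 10 cases, with WRKY 33 (Zm00001d010399) at −1.37 and WRKY 72 at −1.5, and increased in 4.

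Of 20 AP2/ERF factors 11 increased and 5 decreased, among the latter Zm00001d027925, which fell from 37.6 ± 7.97 to 8.95 ± 1.79 CPM. On the other side Zm00001d016623 had 2 counts in WW24, both in replicate 3, and 416 in WS48, a ratio of 195 with a 95% counting interval of 53.6 to 1614. Of 10 homeobox factors 7 increased, with WUSCHEL related homeobox 11 (Zm00001d028986), a gene of root founder cells in Arabidopsis, at 0.170, 0.177 and 0.0687 and then 3.09, 1.66 and 3.31 CPM (log2 change 4.25, SE 0.37, adjusted p = 1.50e-06). Of 12 NF-Y, GATA and MADS factors 8 increased and 1 decreased, with nuclear factor Y subunit A9 (Zm00001d033602) rising from 11.7 ± 0.585 to 43.3 ± 5.31 CPM.

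Among the listed signalling genes decreases were more frequent than increases. Of 25 calcium signalling members 17 decreased (11 without scaling factors) and 5 increased. The widest of these changes were increases, with an EF-hand calcium-binding gene (Zm00001d014325) at 3.02, 1.87 and 1.83 CPM in WW24 and 104, 128 and 119.8 CPM in WS48 (log2 change 5.70, SE 0.24, adjusted p = 2.20e-08) and CBL-interacting protein kinase 5 (Zm00001d005748) rising by 4.12 (SE 0.25). Calmodulin-like 11 (Zm00001d005895) fell from 17.7 ± 2.20 to 4.34 ± 0.615 CPM. Receptor kinases had 28 of 69 members decreased, 18 increased and 23 not called. A leucine-rich repeat gene (Zm00001d051102) measured 4.45, 5.14 and 5.34 and then 44.8, 42.3 and 55.7 CPM (log2 change 3.26, SE 0.15, adjusted p = 6.77e-09), and a leucine-rich repeat kinase (Zm00001d041773) measured 16.0, 17.9 and 18 and then 2.87, 2.98 and 4.30 CPM (log2 change −2.36, SE 0.17, adjusted p = 2.67e-07).

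Some features had not been picked by the study for their change. Genes described only through ortholog groups were called in 12.3% of 130 cases (10 increased, 6 decreased, median −0.07). These genes, like the nuclear genes with no description, are what was left after genes picked for a change, so their shares cannot be read against the 12.5% of all features. Among them a dirigent-like gene (Zm00001d023570), of proteins that guide lignan coupling, measured 2.64, 2.51 and 2.93 CPM in WW24 and 7.79, 7.31 and 11.5 CPM in WS48 (log2 change 1.72, SE 0.24, adjusted p = 8.30e-05), and a lipid transfer protein (Zm00001d047113) measured 255, 291 and 306 and then 106, 107 and 121 CPM (log2 change −1.35, SE 0.09, adjusted p = 1.16e-07). Assembled transcripts without a gene model were called in 9.74% of 1499 cases, 107 increased and 39 decreased. Rows labelled by similarity to known proteins were called in 13.6% of 66 cases, 7 up and 2 down. These included labels for a rice 14-3-3-like protein, which rose from 41.9, 47.3 and 42.2 to 128, 118 and 138 CPM, and an ACC synthase of Prunus (1A11), the enzyme of ethylene precursor synthesis, which fell by −1.35 and lost that call without WS48 replicate 1 or WW24 replicate 3. A label for a heat stress transcription factor C of rice (HFC1B) rose by 5.71, or by 6.39 without WW24 replicate 3. Nuclear genes with no description were called in 7.72% of 23641 cases, 1212 increased and 614 decreased.

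Organelle transcripts were a trace of these libraries, for which the study took mRNA on oligo-dT beads. How far this capture set their level was not tested. Mitochondrial rows held 82.3, 65.9 and 72.6 CPM of unscaled gene counts in WW24 and 103, 119.8 and 97.3 in WS48, so that every stressed library was higher. The difference of 33.2 had p = 0.1 in an exact two-sided permutation test, the smallest p that 3 against 3 libraries allow. Plastid rows held 1.62, 1.34 and 1.52 against 1.05, 2.11 and 1.17 (exact permutation p = 1.0). Of 31 mitochondrial rows tested 2 increased and 1 decreased. The decrease, orf105-c, was from 7.23 ± 1.06 to 3.29 ± 0.246 CPM and was not called without scaling factors, and the increases, cox3 (log2 1.39) and ccmFN (log2 2.72), each lost their calls without any 1 of at least 3 libraries.

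Few features were called between the well-watered controls, and no distance between these 2 groups was computed. Between WW48 and WW24, 183 features were higher and 45 lower in WW48 (0.852% of all tested, 0.684% and 0.168%). These counts depended on single libraries: 59 were higher in WW48 without WW24 replicate 2, 69 without WW48 replicate 1, 77 without WW24 replicate 3 and 302 without WW48 replicate 3, and 21 to 55 were lower. This comparison shares the WW24 libraries with that of WS48 against WW24, and the comparison of WS48 against WW48 shares the WS48 libraries, so their values are only set side by side. For the 20 widest changes, none of the differences between controls except that of pyruvate orthophosphate dikinase was called. The log2 difference of WW48 from WW24 was −0.13 for myo-inositol oxygenase 1, 0.09 for the methylenetetrahydrofolate reductase family gene and −0.01 for the family 32 glycosyl hydrolase. For rarer transcripts it ran wider without being called, in the PEBP gene Zm00001d010586 (log2 change −2.38, adjusted p = 0.0828) and in nitrate reductase 1 (log2 change 1.95, adjusted p = 0.0663), which had 46 and 13 counts in WW24.

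Some genes moved with the control chosen. The dehydrin Zm00001d037894 measured 0.251, 0.264 and 0.233 CPM in WW48, below its 1.77, 1.11 and 1.10 CPM in WW24 (log2 change −2.41, adjusted p = 0.00244), so its log2 change to WS48 was 6.43 from WW24 and 8.85 from WW48. Starch branching enzyme 2.2 (Zm00001d016684), which branches amylopectin, measured 3.08, 4.4 and 3.34 CPM in WW24, 0.887, 1.08 and 1.26 CPM in WW48 and 19.0, 20.9 and 23.4 CPM in WS48. Its libraries formed 3 groups that did not overlap, with the length-matched control between the others. A pectin lyase-like gene (Zm00001d044110), beta-galactosidase 11 (Zm00001d053225) and an aldolase-type TIM barrel gene (Zm00001d020008) had the same order, with log2 changes of 2.81, 1.73 and 1.36 from WW24 and 4.25, 3.85 and 3.06 from WW48.

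Among decreases, pyruvate orthophosphate dikinase (Zm00001d038163), which makes phosphoenolpyruvate from pyruvate, measured 15.7, 18.8 and 23.5 CPM in WW24, 6.19, 3.67 and 5.36 CPM in WW48 and 0.550, 0.786 and 0.641 CPM in WS48. Here WW48 lay between WW24 and WS48, and the change was wider from WW24 (log2 −4.86) than from WW48 (−2.94). Others stood highest in WW48. An acyltransferase (Zm00001d039615) measured 2.28, 1.62 and 3.96 CPM in WW24, 15.9, 15.5 and 7.68 CPM in WW48 and 0.206, 0.298 and 0.786 CPM in WS48 (log2 −2.59 from WW24, or −3.36 without WS48 replicate 3). Serine carboxypeptidase-like 20 (Zm00001d025195), a cytochrome P450 (Zm00001d005823) and an EF-hand gene (Zm00001d005766) followed the same order, with changes of −1.08, −2.60 and −1.05 from WW24 and −2.45, −3.60 and −2.28 from WW48. The calls of the first and last of these rested near the fold threshold and were lost without several single libraries.

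**Figure D5:**
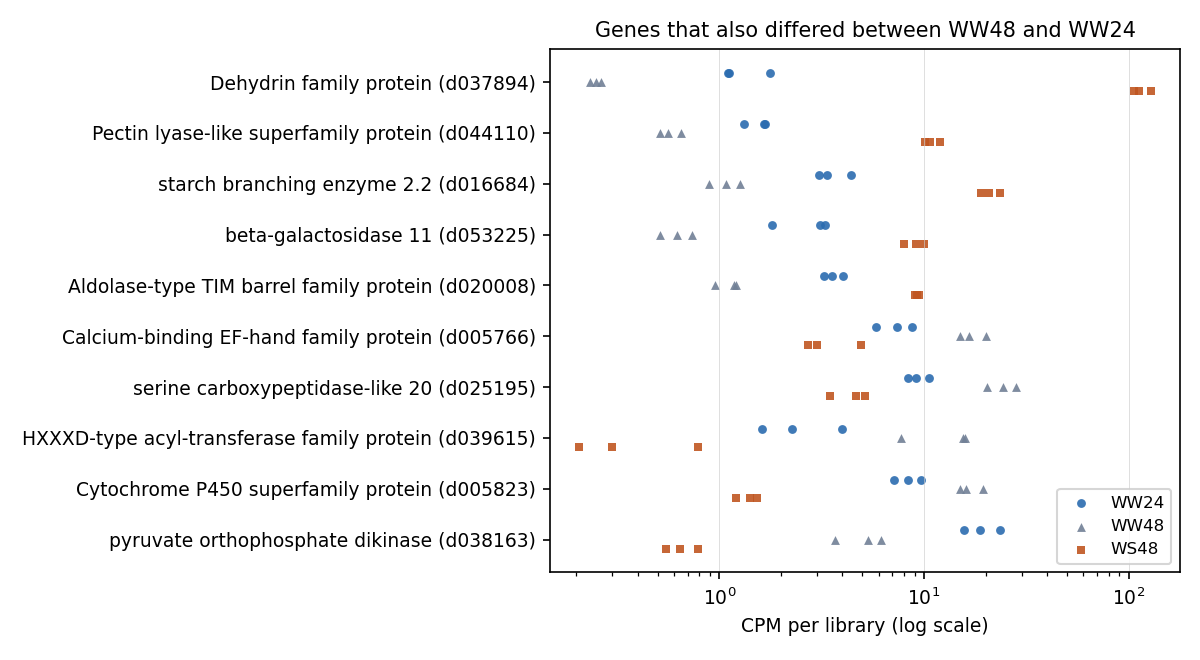
Level per library (x axis, CPM on a log scale) of the 5 increased and 5 decreased described genes with the smallest adjusted p between the controls among those called in both comparisons, with WW24 as circles, WW48 as triangles and WS48 as squares. In the 5 increases WW48 lies below WW24, in 4 decreases it lies above, and for pyruvate orthophosphate dikinase it lies between WW24 and WS48.

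From WW48, 7.13% of tested features increased and 6.79% decreased in WS48, and some transcripts were called from WW24 and not from WW48. The dirigent-like gene Zm00001d023570 measured 10.8, 7.44 and 6.31 CPM in WW48, close to its 7.79, 7.31 and 11.5 CPM in WS48, and its log2 change was 1.72 from WW24 and 0.12 from WW48, with a called difference between the controls (log2 change 1.60, adjusted p = 0.00676). The chalcone synthase family gene Zm00001d052673 measured 4.82, 8.79 and 1.40 CPM in WW48, uneven between libraries and above WW24 (log2 change 4.52, adjusted p = 0.0330), with log2 changes of 6.22 and 1.69. The lipid transfer proteins Zm00001d047113 and Zm00001d047116 fell by −1.35 and −1.28 from WW24 and had log2 changes of −0.81 and −0.76 from WW48, under the fold threshold. For glutathione peroxidase 1 (Zm00001d037079) the changes were 1.06 and 1.00, on either side of the threshold with no called difference between the controls (log2 change 0.06, adjusted p = 0.866).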

How the data were processed

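Root tip libraries of 4 groups (24 and 48 h, well-watered and water-stressed, 3 each) were compared through 1 table. Per the labels and methods, the authors made strand-specific paired-end libraries, trimmed the reads, aligned them with HISAT2 to B73 RefGen_v4, beside which the methods name an assembly of FR697, and counted reads per feature with HTSeq 0.6.1, tools named in the submitters' processing notes. The strand setting of the counter and the HISAT2 settings are not given in the sources used here. Reads of overlapping and antisense genes may therefore not have been told apart. The deposited counts are whole numbers without normalization. The table also holds TMM-normalized values that the authors rounded, a score not used here. The 4 summary rows of the counter were left out of totals and tests. In the 6 libraries, reads not aligned equalled 13.6 to 15.0% of all rows, reads on no feature 1.87 to 2.25%, ambiguous reads 1.01 to 1.05% and low-quality alignments 3.48 to 3.66%. The biological coefficient of variation, common to all features, was 15.9%.

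Features were filtered with filterByExpr (minimum count 10) and fitted over all 12 libraries with edgeR 4.0.16 in R 4.3.3 (TMM factors of 0.926 to 1.05 in the 6 libraries, robust quasi-likelihood, 1 mean per group). On simulated data for WS48 against WW24 (26416 features, 50 changed per size), 34, 84, 98 and 100% of log2 changes of 1, 1.5, 2 and 3 were recovered, with 1 false call. The changed features of the simulation, 200 in all, were picked among well-counted ones, with 50 or more reads expected even in the smallest library. Recovery of rarer transcripts was not tested, nor were false calls with as many changed features as were called here. Organelle shares were compared by exact permutation tests.

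Gene descriptions came from the study's supplementary tables and from ortholog groups there, used only for names. Named genes were the 10 widest described changes in each direction with an average log2 CPM of at least 2 and groups that did not overlap, up to 3 called members of each list by adjusted p, the 5 genes each way that differed between controls with the smallest adjusted p, and leading members of other feature classes. Members and lists were chosen with earlier results of these data known, and genes named beyond that rule were chosen after their values were seen. Alternatives comprised scaling, filters, DESeq2 1.42.0, other call rules, fewer libraries and a replicate block. Libraries of the 24 h stress group entered the filter, the common fit, mean levels over all 12 libraries and the correlations by replicate number. No comparison of groups given here includes that group.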

Additional observations from a re-analysis of the deposited data

How the results depend on the processing

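Of the choices tried for WS48 against WW24, those on scaling, absence of a filter, DESeq2 and the fit of 6 libraries kept the number of increased features between 1935 and 2526 and of decreased features between 1013 and 1342, around 2074 and 1272. A filter over 3 CPM, which tests fewer features, called 1159 and 832. A test against a log2 change of 1 (glmTreat) called 903 and 484, and the adjusted p alone 5339 and 5085. Without scaling factors 71.4% of calls were increases (2526 and 1013) in place of 62.0%. Leaving out 1 library at a time gave 1803 to 2239 increased and 1126 to 1336 decreased features. Between WW48 and WW24, DESeq2 called 369 higher and 102 lower in place of 183 and 45, and leaving out 1 library gave 59 to 302 and 21 to 55. No cause of these differences was tested.

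Libraries with the same replicate number in the title were not more alike across groups. Over all groups, correlations of their deviations from the group mean ran from −0.50 to 0.11, against −0.34 to 0.48 for other numbers. Between WS48 and WW24 the ranges were −0.15 to 0.09 and −0.18 to 0.24. Such correlations cannot show whether samples were collected together. With the replicate block 2009 features increased and 1220 decreased in WS48, and 115 were higher in WW48.

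None of the 192 named genes changed sign. Calls were lost by 28 of them under glmTreat, by 4 without scaling factors, by 1 with DESeq2 and by 2 to 4 without a single library. Of 750 called genes in the lists or named, 74 moved by over 1.5 times without WW24 replicate 1, against 4 to 24 without any other library. Mitochondrial and plastid shares differed by 26.7 to 37.9 and by −0.38 to 0.15 CPM without 1 library. Of 110 counts of list members, 49 moved by over 1.5 times under glmTreat, 3 on the adjusted p alone, 3 without scaling factors and up to 2 without a single library. With the filter over 3 CPM, 188 of the 192 named genes were tested. A call needs an estimated log2 change of 1, so changes of that size pass or miss it by small errors. In the simulation, 34% of such changes were recovered among well-counted features.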
